A study of Mus musculus with 30 samples.

Results

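The circadian clock output factors *Dbp*, *Tef*, *Hlf*, *Nfil3*, *Bhlhe40*, *Bhlhe41* and *Usp2* were followed in the mouse liver. They were chosen by name. Their symbols were read from a time-course table of 54429 genes and their Ensembl identifiers from a genotype table of 55471 genes, and all 7 were found in both tables and passed the filter on low counts. Liver poly(A) RNA came from male mice kept under a 12-h light and 12-h dark cycle with chow ad libitum. The time course held 18 libraries of wild-type C57BL/6J mice, 1 at each of 6 zeitgeber times (ZT, hours after lights on: ZT1, ZT5, ZT9, ZT13, ZT17 and ZT21) at 2, 6 and 12 months of age. The genotype experiment held 12 libraries of liver-specific *Egr-1* knockout mice (KO) and their littermates (WT), 1 for each genotype and age at the time of highest (H) and of lowest (L) Egr-1 protein. The H and L times were ZT13 and ZT17 at 2 months, ZT9 and ZT21 at 6 months, and ZT5 and ZT21 at 12 months. The KO mice carried homozygous floxed *Egr-1* and Cre recombinase under the albumin promoter, which is active in hepatocytes, on a background returned to C57BL/6J by backcrossing. The study's legends speak of several mice per group for this experiment. Which of these alleles the littermates carried, and whether several animals were pooled into the 1 library of a group, is not given in the sources used here.

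Each group was 1 library, so no p-value rests on replicates of a group. Most tests let libraries of other times, ages or genotypes stand in for replicates, and a permutation test on ranks used the 6 libraries of 1 age. Libraries held 13375377 to 16557378 counts in the time course and 13747706 to 21748956 in the genotype experiment. Levels are given as CPM, counts scaled by library total and TMM factor. In the genotype experiment *Egr1* was lower in the library labelled KO in 4 of 6 pairs. It was not lower at 2 months L (7.36 CPM labelled KO against 1.45 in WT) or at 12 months H (6.15 against 5.87), so libraries are called KO here only by their label. The H and L labels did not follow *Egr1* mRNA at every age, since in WT at 12 months it was 5.87 CPM at H and 55.3 CPM at L. The 5 hepatocyte markers summed to 88470 to 101900 CPM at 2 months, 53090 to 104100 CPM at 6 months (lowest at ZT5) and 95550 to 130800 CPM at 12 months, 42960 to 60920 CPM in the 6 KO-labelled libraries and 72470 to 93410 CPM in the 6 WT libraries. Markers of Kupffer, endothelial, stellate, cholangiocyte, pancreatic acinar and white blood cells summed to at most 565.2, 249.3, 461.7, 26.9, 61.9 and 21.9 CPM in any library, with 1 of the 4 pancreatic markers at 0 throughout 2 months. The 6 acute-phase genes, which the liver raises in inflammation, summed in the time course to 16650 to 62080 CPM at 6 months, highest at ZT5. They summed to 2553 to 3335 CPM at 2 months and 2115 to 5235 CPM at 12 months. The genotype libraries of 6 months did not show this rise, with 2793 (H) and 4438 CPM (L) in WT and 5305 (H) and 2789 CPM (L) labelled KO. In whole liver, fewer cells of a type and less RNA per cell cannot be told apart.

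The clock of the liver runs on the activators BMAL1 and CLOCK, which bind E-boxes and drive their own repressors together with a layer of output genes. *Dbp*, *Tef* and *Hlf* encode the PAR bZIP factors, which activate genes through D-boxes, and *Nfil3* (E4BP4) encodes a repressor that binds the same D-boxes and is itself repressed by the REV-ERB receptors. *Bhlhe40* and *Bhlhe41* (DEC1 and DEC2) encode repressors that compete for E-boxes, and *Usp2* encodes a ubiquitin-specific protease.

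The start-site windows of these genes were searched for the elements that this circuit uses. RefSeq windows of 250 bases before to 50 after a start (GRCm38.p6) were at hand for 6 of the 7 genes, with 2 starts for *Tef*. *Bhlhe40* had no entry. Both strands were searched for the E-box CACGTG and its variant CACGTT, the D-boxes TTATGTAA and TTATGCAA, the REV-ERB and ROR half-site AGGTCA, and the cyclic AMP response element TGACGTCA. The 5 windows with a match are shown 5′ to 3′ with the match in capitals. No match overlapped another. The windows lie at chr15:81802423-81802722 (plus strand) and chr15:81811164-81811463 (plus strand) for *Tef*, chr6:145865371-145865670 (minus strand) for *Bhlhe41*, chr11:90390868-90391167 (minus strand) for *Hlf* and chr13:52980990-52981289 (minus strand) for *Nfil3*.
Tef, upstream start: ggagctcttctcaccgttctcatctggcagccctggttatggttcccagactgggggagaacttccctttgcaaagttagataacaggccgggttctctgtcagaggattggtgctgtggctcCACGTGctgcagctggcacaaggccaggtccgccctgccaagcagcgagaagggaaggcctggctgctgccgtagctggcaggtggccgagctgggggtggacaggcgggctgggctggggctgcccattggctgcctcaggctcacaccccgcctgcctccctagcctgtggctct
Tef, downstream start: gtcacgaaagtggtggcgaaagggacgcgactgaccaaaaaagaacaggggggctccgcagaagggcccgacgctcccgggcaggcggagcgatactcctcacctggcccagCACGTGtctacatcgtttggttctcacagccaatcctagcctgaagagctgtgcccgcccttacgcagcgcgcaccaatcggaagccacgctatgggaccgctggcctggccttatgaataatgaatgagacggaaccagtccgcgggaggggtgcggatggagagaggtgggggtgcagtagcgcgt
Bhlhe41: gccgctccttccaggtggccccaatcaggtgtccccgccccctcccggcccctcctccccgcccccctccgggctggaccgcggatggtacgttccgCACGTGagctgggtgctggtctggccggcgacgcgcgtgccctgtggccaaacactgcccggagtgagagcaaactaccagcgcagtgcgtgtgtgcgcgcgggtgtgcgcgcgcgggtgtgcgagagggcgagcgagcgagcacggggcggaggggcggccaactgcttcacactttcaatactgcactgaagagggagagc
Hlf: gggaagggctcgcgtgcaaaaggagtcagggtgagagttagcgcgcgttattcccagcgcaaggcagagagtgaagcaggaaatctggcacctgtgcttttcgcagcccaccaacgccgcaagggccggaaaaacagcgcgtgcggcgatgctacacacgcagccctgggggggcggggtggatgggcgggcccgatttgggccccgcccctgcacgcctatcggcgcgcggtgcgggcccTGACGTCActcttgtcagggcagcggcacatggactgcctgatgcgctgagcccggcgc
Nfil3: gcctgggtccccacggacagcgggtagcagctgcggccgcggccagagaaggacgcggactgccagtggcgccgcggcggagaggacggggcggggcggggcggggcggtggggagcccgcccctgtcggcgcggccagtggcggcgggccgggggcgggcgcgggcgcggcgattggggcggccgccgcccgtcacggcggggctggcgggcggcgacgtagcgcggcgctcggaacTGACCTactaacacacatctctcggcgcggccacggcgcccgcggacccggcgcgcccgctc
Both *Tef* windows and the *Bhlhe41* window held an E-box, at -127, -138 and -153 from the start, an element found in 7.15% of 32851 windows. The *Hlf* window held the cyclic AMP response element at -9 (1.79% of windows), and the *Nfil3* window held the half-site on the minus strand, TGACCT as printed, at -12 (16.26% of windows). The *Dbp* and *Usp2* windows held none of the 6 motifs. The variant E-box and the D-boxes, found in 4.68%, 0.94% and 0.74% of windows, had no match in any of the 7 windows. A match is a string of letters and not a bound site.

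*Dbp* (ENSMUSG00000059824, chromosome 7 of GRCm38, 45705088 to 45710203) swung most widely. At 2 months its levels were 0.550, 67.5, 125.0, 40.0, 6.10 and 1.35 CPM at ZT1, ZT5, ZT9, ZT13, ZT17 and ZT21, a 227.0-fold range whose low point was 8 reads (95% Poisson interval 0.238 to 1.08 CPM, counting error only). At 6 months the same times gave 0.819, 3.35, 61.9, 73.8, 13.8 and 1.34 CPM. At 12 months they gave 1.46, 22.9, 119.8, 58.6, 9.25 and 3.60 CPM. The maximum was thus at ZT9 at 2 and 12 months and at ZT13 at 6 months, and the rise that was well under way by ZT5 at 2 months had hardly begun at ZT5 at 6 months. *Dbp* shares 539 of its 2993 exonic bases with *Sphk2* on the opposite strand, and whether reads were counted by strand is not given in the sources used here.

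*Tef* (ENSMUSG00000022389, chromosome 15, 81802421 to 81826863) and *Hlf* (ENSMUSG00000003949, chromosome 11, 90336536 to 90390895) followed with smaller swings. *Tef* ran from 25.9 CPM at ZT1 to 160.9 at ZT9 at 2 months, from 17.3 at ZT5 to 132.1 at ZT13 at 6 months and from 25.4 at ZT1 to 157.7 at ZT13 at 12 months. *Hlf* ran from 22.6 to 51.9 CPM, from 21.2 to 41.3 CPM and from 25.3 to 55.5 CPM at the same ages, with its maximum at ZT13, ZT17 and ZT13. Their ranges overlapped between ages.

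*Nfil3* (ENSMUSG00000056749, chromosome 13, 52967209 to 52981073) ran opposite to these activators. At 2 months it stood at 25.9, 13.3, 5.39, 15.9, 26.9 and 35.0 CPM from ZT1 to ZT21. At 6 months it stood at 41.8, 55.0, 15.8, 12.1, 20.9 and 34.5 CPM. At 12 months it stood at 45.1, 14.4, 7.90, 9.71, 20.3 and 37.9 CPM. The 6-month library at ZT5 was therefore the highest of the 18, where the other ages were already descending. That library also held the highest acute-phase sum, 62080 CPM, and the lowest hepatocyte marker sum, 53090 CPM, and their part in the *Nfil3* level was not tested.

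*Usp2* (ENSMUSG00000032010, chromosome 9, 44067021 to 44095627) peaked at ZT13 at every age, at 40.9, 33.2 and 37.2 CPM, over lows of 1.17, 1.86 and 1.27 CPM. *Bhlhe40* (ENSMUSG00000030103, chromosome 6, 108660629 to 108666925) was also highest at ZT13 at every age, at 111.9, 100.7 and 145.4 CPM. Its low point was ZT1 at 2 months (31.0 CPM) and 12 months (22.9 CPM) and ZT5 at 6 months (33.9 CPM, where ZT1 held 73.0 CPM). *Bhlhe41* (ENSMUSG00000030256, chromosome 6, 145858243 to 145865558) was scarce, with 6 to 76 reads a library, and was highest at ZT9 at every age at 5.182, 4.495 and 4.271 CPM. At 6 months it was still 4.03 CPM at ZT13, where the other ages held 1.46 and 1.91 CPM.

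**Figure D1:**
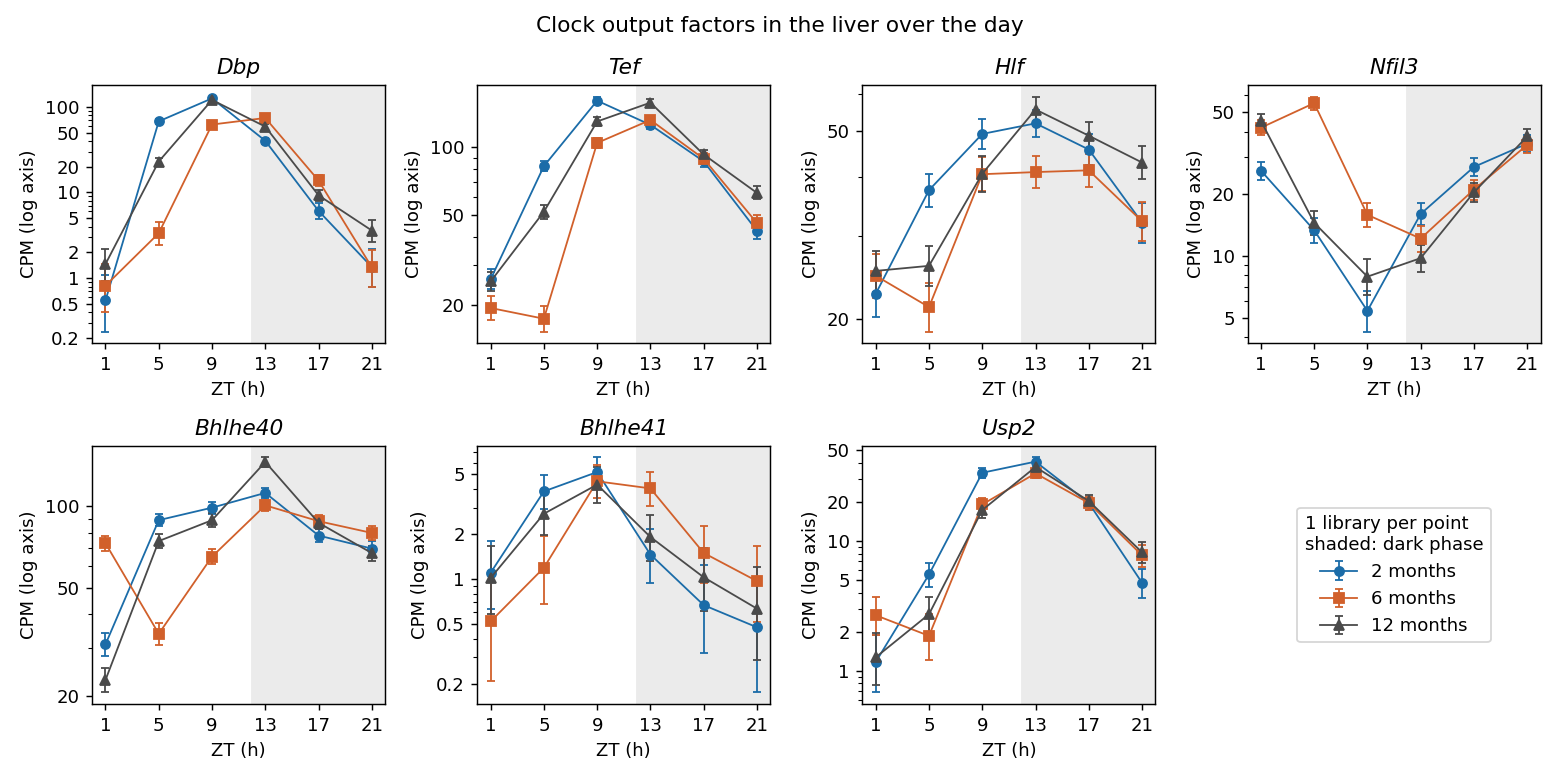
Level of each clock output factor (CPM, log axis) against ZT in the 18 time-course libraries, 1 library per point, with 95% Poisson intervals for counting error and the dark phase shaded. *Dbp* at ZT5 stands at 67.5 CPM at 2 months, 22.9 CPM at 12 months and 3.35 CPM at 6 months, and *Nfil3* at the same time stands at 13.3, 14.4 and 55.0 CPM.

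Per exon length, the balance of D-box factors turned over within the day. CPM per kilobase of exon (FPKM) was summed for *Dbp*, *Tef* and *Hlf* and divided by that of *Nfil3*. At 2 months this ratio rose from 0.538 at ZT1 to 26.2 at ZT9 and fell to 0.618 at ZT21. At 12 months it rose from 0.337 at ZT1 to 16.1 at ZT9. At 6 months it was 0.239 at ZT5, where the other ages held 5.89 and 2.54, and reached 7.97 at ZT13. In FPKM *Nfil3* therefore exceeded the sum of the activators at ZT1 and ZT21 at every age, and also at ZT5 at 6 months. Where the ratio crosses 1 depends on the scaling by exon length (2026 bases for *Nfil3*, 7867 for *Tef*). In CPM at 2 months ZT21 *Tef* alone, at 42.6, exceeded *Nfil3* at 35.0. At 6 months ZT5 *Nfil3* led in CPM too, at 55.0 against 17.3 for *Tef*, 21.2 for *Hlf* and 3.35 for *Dbp*. The share of *Dbp* in the sum moved between 2.68% and 60.0% at 2 months, 4.03% and 51.8% at 6 months, and 6.51% and 63.9% at 12 months. *Hlf* and *Tef* thus made up most of the sum in the trough. By mean FPKM over the 6 times at 2 months the order was *Bhlhe40* (16.9), *Dbp* (13.4), *Tef* (11.1), *Nfil3* (10.1), *Hlf* (5.96), *Usp2* (3.65) and *Bhlhe41* (0.316). The daily ranges of all neighbours in this order overlapped.

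**Figure D2:**
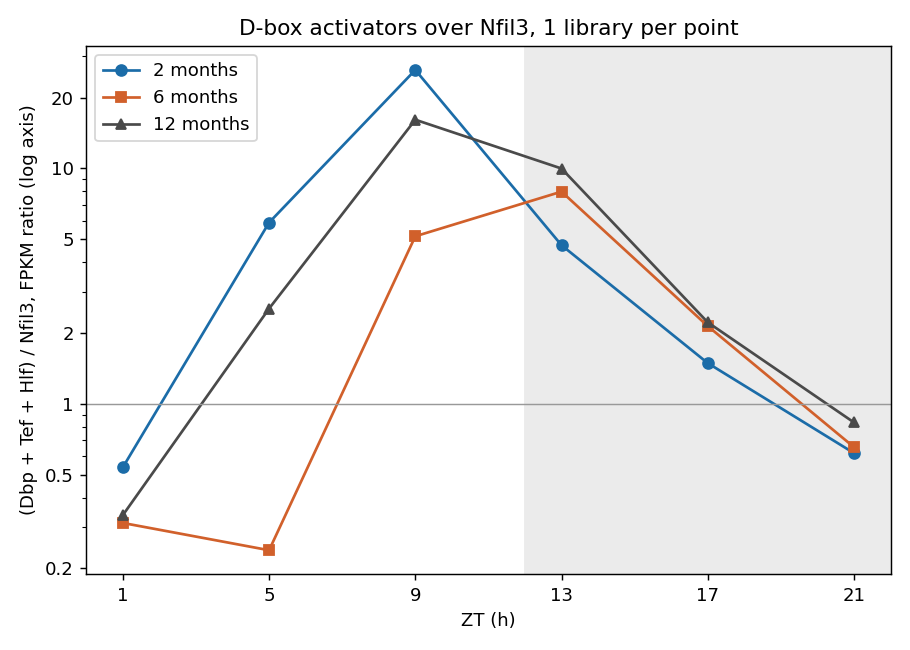
Ratio of the summed FPKM of *Dbp*, *Tef* and *Hlf* to the FPKM of *Nfil3* (log axis) against ZT at 2, 6 and 12 months, 1 library per point, with a line at 1. The 6-month ratio is 0.239 at ZT5, below the 5.89 of 2 months and the 2.54 of 12 months, and its maximum of 7.97 comes at ZT13 rather than ZT9.

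To ask which of these genes were rhythmic, a 24-h curve was fitted to the counts at each age (quasi-likelihood F-test of edgeR, adjusted by Benjamini-Hochberg over 13361 genes). *Dbp*, *Tef*, *Hlf*, *Nfil3*, *Bhlhe41* and *Usp2* were called rhythmic at each age, 6 of the 7 genes, where 5.13%, 4.85% and 3.79% of all genes were called at 2, 6 and 12 months. *Bhlhe40* was not called at any age (adjusted p = 0.206, 0.316 and 0.065 by the same edgeR test). The amplitude of *Dbp* on the log2 scale was 3.56 ± 0.36 (SE of the fit), 3.65 ± 0.42 and 2.98 ± 0.34, which placed it 3rd, 1st and 3rd among the 686, 648 and 506 genes called. *Usp2* followed with 2.36 ± 0.24, 1.98 ± 0.24 and 2.18 ± 0.24, then *Bhlhe41* with 1.79 ± 0.23, 1.52 ± 0.22 and 1.32 ± 0.22. *Tef* had 1.197 ± 0.19, 1.53 ± 0.19 and 1.17 ± 0.19 and *Nfil3* 1.12 ± 0.17, 1.03 ± 0.16 and 1.31 ± 0.17, above the median amplitude of all called genes at each age (0.65, 0.66 and 0.62). *Hlf* was below that median at every age, with 0.55 ± 0.10, 0.49 ± 0.10 and 0.59 ± 0.10.

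The calls of *Dbp* and *Usp2* held when any ZT was left out at all ages, and those of the flatter genes did not always. *Hlf* was no longer called at 2 months without ZT1 (amplitude 0.42) or ZT13 (0.63), at 6 months without ZT1 (0.53), ZT5 (0.38), ZT13 (0.56) or ZT17 (0.51), and at 12 months without ZT1 (0.54) or ZT13 (0.58). *Nfil3* lost its call at 6 months without ZT13 (0.96), *Bhlhe41* at 12 months without ZT9 (1.21) and *Tef* at 12 months without ZT1 (0.97) or ZT13 (1.24). *Bhlhe40* gained a call at 6 months without ZT1 (0.77) and at 12 months without ZT5 (1.17) or ZT21 (1.17), and also at 12 months without TMM factors (0.94) or without the filter on low counts (0.91). A JTK-type exact permutation test on ranks, which with 6 values cannot go below p = 0.0333, gave that value for *Hlf*, *Nfil3*, *Bhlhe41* and *Usp2* at 2 months, for *Dbp* at 6 months and for *Tef*, *Bhlhe40*, *Bhlhe41* and *Usp2* at 12 months. Those are 4, 1 and 4 of 7 genes, where 8.64%, 8.3% and 6.46% of 12470 genes reached it. The rest had the next smallest value, p = 0.133 in this exact permutation test, so all 7 genes stood at either value, as did 27.9%, 26.1% and 22.0% of the 12470 genes. By this test no gene of the whole table passed after adjustment (smallest adjusted p of the permutation test 0.386, 0.402 and 0.516).

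At each age the fitted peaks began with *Bhlhe41* and then *Dbp*, went on with *Tef*, *Usp2*, *Hlf* and *Bhlhe40* in varying order, and ended with *Nfil3*. At 6 months the *Nfil3* peak was at ZT1.435 ± 0.60 h (SE of the fit), so it is last only when counted on past the next lights on. At 2 months *Bhlhe41* peaked at ZT7.60 ± 0.45 h (SE of the fit), *Dbp* at ZT9.08 ± 0.33 h and *Tef* at ZT11.2 ± 0.59 h. *Hlf* and *Usp2* came at ZT12.3 ± 0.68 h and ZT12.5 ± 0.36 h, and *Nfil3* at ZT20.7 ± 0.57 h. The steps from *Bhlhe41* to *Dbp* (1.48 ± 0.56 h), from *Dbp* to *Tef* (2.14 ± 0.68 h) and from *Usp2* to *Nfil3* (8.21 ± 0.67 h) had a 95% interval that left out 0, and the steps among *Tef*, *Bhlhe40*, *Hlf* and *Usp2* did not. The SE of a step took the peaks of both genes as independent, although they came from the same libraries. The order was taken from these same fitted peaks, so every step is positive by construction and its interval is descriptive only. At 12 months *Bhlhe41* again preceded *Dbp* by 1.72 ± 0.70 h, and at 6 months the gap was 0.41 ± 0.63 h, within its error. *Nfil3* trailed *Bhlhe40*, which was not called rhythmic, by 8.74 ± 1.59 h at 6 months and *Hlf* by 7.59 ± 0.80 h at 12 months.

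From 2 to 6 months all 7 fitted peaks moved later. The shifts were 2.73 ± 0.48 h for *Dbp*, 2.48 ± 0.75 h for *Tef*, 2.03 ± 1.03 h for *Hlf*, 4.77 ± 0.83 h for *Nfil3*, 3.79 ± 0.69 h for *Bhlhe41* and 1.34 ± 0.57 h for *Usp2*. *Bhlhe40*, without a called rhythm, gave 4.93 ± 1.94 h. Their median was 2.73 h, beside 1.80 h over the 238 genes rhythmic at both ages, of which 202 moved later. The test of amplitude and phase together called 0 of the 7 genes (0.112% of all genes were called by edgeR). It gave an unadjusted p under 0.05 for 5 of the 7, where 10.8% of all genes had one, and the smallest adjusted p were 0.0651 for *Dbp* and for *Nfil3* and 0.0741 for *Bhlhe41* (edgeR). DESeq2 called 2 genes, *Nfil3* and *Bhlhe41*, and edgeR without the filter on low counts called 3, *Dbp* with them, so the call depends on the tool and the filter. Without ZT1, edgeR called *Dbp* and *Nfil3*, and without ZT9 it called *Nfil3*. With ZT5 left out of all ages the median shift was 1.47 h, and *Dbp* moved by 1.47 h, *Tef* by 1.37 h, *Hlf* by 0.564 h, *Nfil3* by 3.75 h, *Bhlhe40* by 3.02 h, *Bhlhe41* by 3.38 h and *Usp2* by 0.87 h. Each of the 7 shifts was at its smallest without ZT5 and still later. The acute-phase sum was highest and the hepatocyte marker sum lowest in the 6-month library at ZT5. In every 6-month library of the time course the acute-phase sum was at least 16650 CPM, against at most 3335 CPM at 2 months. Leaving out ZT5 therefore does not remove that difference between the ages. The part of these sums in the shifts was not tested.

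The move from 2 to 12 months was smaller for *Dbp* (1.18 ± 0.50 h), *Nfil3* (1.88 ± 0.74 h), *Bhlhe41* (0.928 ± 0.74 h) and *Tef* (1.62 ± 0.84 h). It was 2.65 ± 0.93 h for *Hlf*, 1.38 ± 0.54 h for *Usp2* and 0.982 ± 1.55 h for *Bhlhe40*. The median of 1.38 h lay beside 1.44 h over the 326 genes rhythmic at both ages, of which 291 moved later. None of the 7 was called (edgeR, 0.0% of all genes called), 4 had an unadjusted p under 0.05 (4.56% of all genes), and DESeq2 called 0 of the 2 to which it gave an adjusted p. Leaving out ZT5 lowered the *Dbp* shift to 0.241 h. From 6 to 12 months the median shift was -1.55 h, beside -0.757 h over 197 genes rhythmic at both ages, of which 67 moved later. *Nfil3* moved by -2.88 ± 0.77 h, *Bhlhe41* by -2.86 ± 0.79 h, *Dbp* by -1.55 ± 0.51 h and *Bhlhe40* by -3.95 ± 1.71 h. The shifts of *Tef* (-0.86 ± 0.76 h), *Hlf* (0.62 ± 1.00 h) and *Usp2* (0.03 ± 0.59 h) had a 95% interval that held 0. No gene was called between these ages (edgeR, 0.0898% of all genes called, 3 of the 7 and 10.7% of all genes at an unadjusted p under 0.05, 0 by DESeq2), and *Dbp* was called once ZT1 was left out. The 3 contrasts share libraries and are not separate evidence.

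**Figure D3:**
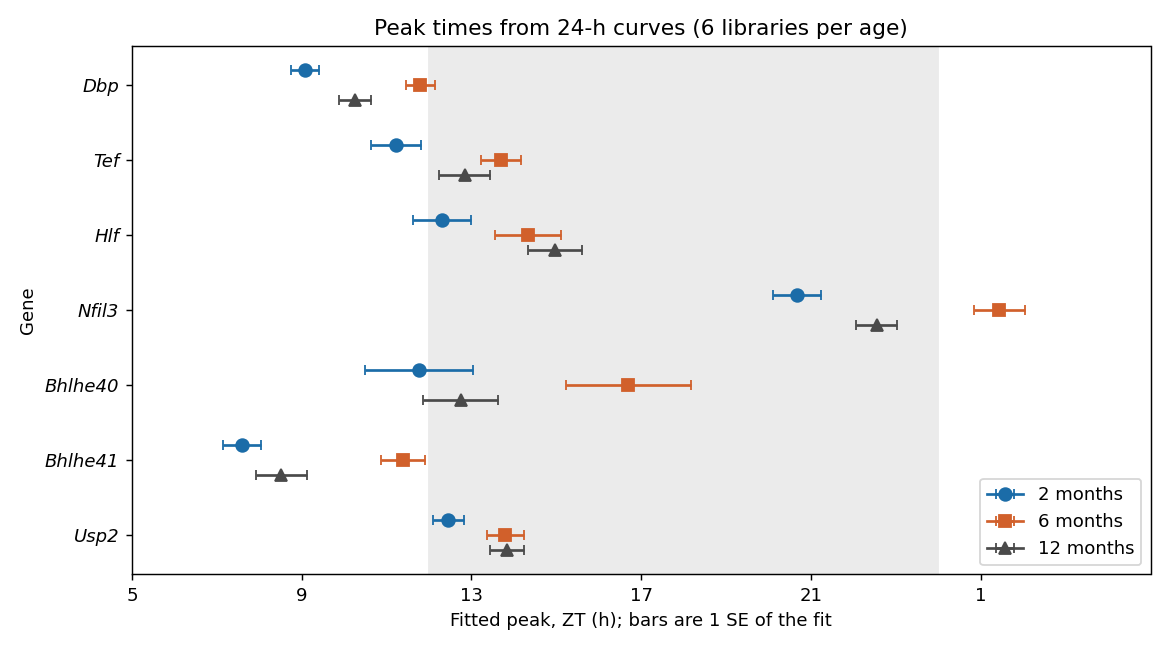
Fitted peak time (ZT, h) of each gene at 2, 6 and 12 months from 24-h curves over 6 libraries per age, with bars of 1 SE of the fit and the dark phase shaded. The 6-month peak lies later than the 2-month peak in all 7 genes, from 1.34 h for *Usp2* to 4.93 h for *Bhlhe40*, which was not called rhythmic.

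The level averaged over the day was compared between ages with ZT as a block. None of the 7 genes was called in any of the 3 comparisons, where edgeR called 13.7%, 11.9% and 16.4% of all genes from 2 to 6, 2 to 12 and 6 to 12 months. DESeq2 also called 0 in each. At an unadjusted p under 0.05 there were 2, 0 and 1 genes, where 27.7%, 26.8% and 30.6% of all genes had one. On the log2 scale *Nfil3* differed by 0.58 ± 0.28 from 2 to 6 months (adjusted p = 0.193, edgeR), *Tef* by -0.48 ± 0.21 (0.155) and *Hlf* by -0.25 ± 0.11 (0.148). Without the filter on low counts *Nfil3* (0.60) and *Tef* (-0.47) were called. With ZT5 left out the difference of *Nfil3* was 0.23, that of *Tef* -0.17 and that of *Hlf* -0.14, and that of *Dbp*, -0.53 ± 0.52 over all times, turned to 0.28. From 2 to 12 months the 7 differences ran from -0.26 to 0.05, and from 6 to 12 months from -0.54 to 0.44.

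Across the 18 libraries the profiles were set side by side by Pearson correlation of log2(CPM + 0.5), a description in which libraries share ages and times. *Dbp* was most like the REV-ERB gene *Nr1d2* (r = 0.946), with *Uri1* (0.906) and the E-box repressor *Ciart* (0.90) next, and ran opposite to *Nfil3* (-0.90). *Tef* was most like the period gene *Per3* (0.978), the cell-cycle kinase *Wee1* (0.949) and *Nmrk1* (0.933). *Hlf* was closest to *Ncl* and *Wee1* (0.942 each) and to the liver glycogen synthase *Gys2* (0.923). For *Usp2* the closest were *Nmrk1* (0.941), *Klf13* (0.937) and *Chp1* (0.936), and for *Nfil3* they included *Ncoa5* (0.944) and *Insc* (0.934). *Bhlhe41* was closest to *Nr1d2* (0.869), *Gm26782* (0.864) and *Rnf19b* (0.859), and *Bhlhe40* to *Slc20a1* (0.86), *Nabp1* (0.858) and *Ndel1* (0.855). Although they are paralogs, *Bhlhe40* and *Bhlhe41* had an r of 0.332, while *Usp2* and *Hlf* had 0.939 and *Tef* and *Hlf* 0.922.

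Among the 13 core clock genes, 11, 10 and 11 were called rhythmic at 2, 6 and 12 months, where 5.13%, 4.85% and 3.79% of all genes were called. From 2 to 6 months 12 of them peaked later, and the median shift over the 13 was 2.73 h. In the test of amplitude and phase together edgeR called 1, *Nr1d1*, which encodes REV-ERB alpha (adjusted p = 0.0299, 0.112% of all genes called). Its amplitude change was -0.93 ± 0.39 and was not tested alone. Of 12 genes known as targets of the PAR bZIP factors or of *Nfil3* in liver, 10 passed the filter. At 2, 6 and 12 months 6, 7 and 4 of these were called rhythmic, beside the same shares of all genes. *Por*, the electron donor of cytochromes P450, and *Alas1*, the first enzyme of heme synthesis, were called at each age and were highest at ZT13 at each age, at 431.4, 318.5 and 349.7 CPM and at 740.6, 540.5 and 694.4 CPM. *Cyp2a5*, a coumarin hydroxylase, had its fitted peak at ZT11.7 ± 0.44 h, ZT15.9 ± 0.36 h and ZT14.6 ± 0.46 h. It was the only target called for a change of rhythm from 2 to 6 months (adjusted p = 0.0232, edgeR, 0.112% of all genes called). At an unadjusted p under 0.05 there were 4 of the 10 targets, where 10.8% of all genes had one. *Cyp2a4* and *Cyp2a5*, like *Acot1*, *Acot3* and *Acot4*, are close paralogs whose reads may be split. Over the 10 targets, which include genes without a called rhythm, the median shift from 2 to 6 months was 1.80 h, with 8 later. That equals the median of 1.80 h over the 238 genes rhythmic at both ages, of which 202 moved later. In level, 1 of the 10 targets was called from 2 to 6 months, where 13.7% of all genes were called. It was *Ppara*, lower at 6 months (-0.47 ± 0.14, adjusted p = 0.0379, edgeR). From 2 to 12 months 3 of the 10 were called, where 11.9% of all genes were. They were the acyl-CoA thioesterases *Acot1* (0.77 ± 0.20), *Acot3* (2.09 ± 0.54) and *Acot4* (0.68 ± 0.17), all higher at 12 months (adjusted p = 0.0197, 0.0196 and 0.0167, edgeR). *Cyp7a1*, the rate-limiting enzyme of bile acid synthesis, was not called rhythmic at any age.

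The second experiment asked whether loss of *Egr-1* in the liver alters expression. Over the 6 pairs of libraries 0 of the 7 genes was called between genotypes (edgeR, 1.58% of 13639 genes called, 0 of the 7 and 16.0% of all genes at an unadjusted p under 0.05, 0 by DESeq2). Differences, labelled KO minus WT on the log2 scale, ran from -0.16 ± 0.19 for *Nfil3* to 0.28 ± 0.28 for *Usp2*. *Dbp* differed by 0.06 ± 0.27 (95% interval -0.48 to 0.60), *Tef* by 0.10 ± 0.17 and *Hlf* by -0.07 ± 0.10 (-0.26 to 0.12). *Bhlhe40* differed by 0.05 ± 0.08 and *Bhlhe41* by 0.22 ± 0.34. The hepatocyte marker sum was lower in every KO-labelled library, and its part in these differences was not tested.

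Behind these means, single pairs differed widely and in both directions. At 2 months L the KO-labelled library held 72.9 CPM of *Dbp* against 24.5 in WT, 66.7 of *Usp2* against 16.99 and 191.5 of *Tef* against 109.5, and this is also the pair in which *Egr1* was 5.08 times as high in the KO-labelled library. Without that pair the genotype differences turned to -0.304 for *Dbp*, -0.0902 for *Usp2* and -0.0499 for *Tef*. At 12 months L the KO-labelled library held 4.63 CPM of *Bhlhe41* against 0.896 and 73.9 of *Tef* against 42.8, and without this pair *Bhlhe41* turned to -0.14 and *Tef* to -0.04. At 6 months L *Nfil3* was 26.9 CPM labelled KO against 58.9, and without this pair it turned to 0.0325. *Hlf* was lower in the KO-labelled library in 5 of 6 pairs, and its difference turned to 0.0521 when library totals were used without TMM factors. In the 4 pairs in which *Egr1* was lower in the KO-labelled library, the differences were -0.31 for *Dbp*, -0.11 for *Usp2* and -0.00322 for *Tef*, and none was called.

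**Figure D4:**
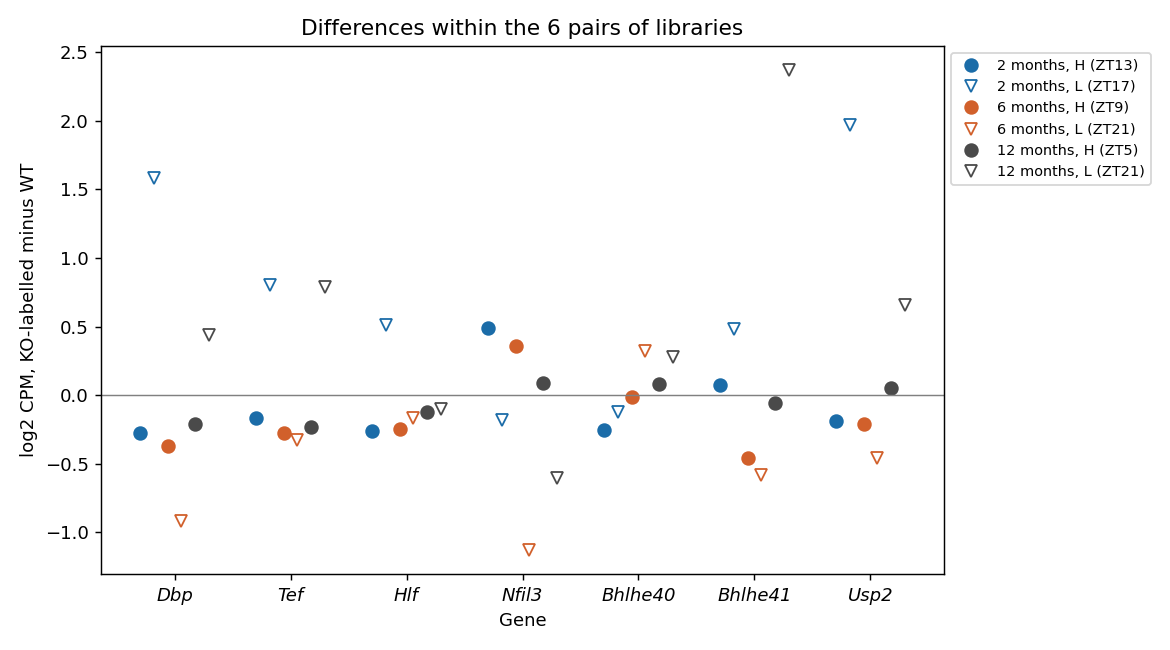
Difference in level between the KO-labelled and the WT library (log2 CPM) for each gene in each of the 6 pairs, 1 library per genotype, with filled circles for H, open triangles for L and colours for age. The differences at H lie between -0.46 and 0.49, and those at L between -1.13 and 2.37, with *Dbp* at 1.58 and *Usp2* at 1.97 at 2 months and *Bhlhe41* at 2.37 at 12 months.

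The test of whether the genotype difference itself differed between H and L called 0 of the 7 genes (edgeR, 0.00733% of all genes called, 0 by DESeq2), and 2 had an unadjusted p under 0.05, *Nfil3* and *Tef*, as did 5.23% of all genes. *Nfil3* at H was 26.2, 23.4 and 46.5 CPM in WT and 36.8, 29.9 and 49.5 CPM labelled KO at 2, 6 and 12 months. At L it was 27.8, 58.9 and 46.4 CPM in WT and 24.5, 26.9 and 30.6 CPM labelled KO. It was thus higher in the KO-labelled library in 3 of 3 pairs at H and lower in 3 of 3 at L, and on the log2 scale the genotype differences at H and L lay 0.95 ± 0.23 apart (adjusted p = 0.706, edgeR). For *Tef* the same difference was -0.65 ± 0.27 (adjusted p = 0.943, edgeR). The genotype difference was not called to depend on age in any of the 7 (edgeR, 0.0147% of all genes called, 0 of the 7 and 3.11% of all genes at an unadjusted p under 0.05, 0 by DESeq2).

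H and L were compared within each age with both genotypes standing in for replicates, and 0 of the 7 genes was called at any age (edgeR, 0.00733%, 0.11% and 0.0587% of all genes called at 2, 6 and 12 months, 0 by DESeq2). At an unadjusted p under 0.05 there were 1, 2 and 2 genes, where 909, 1351 and 1365 of 13639 genes had one. *Dbp* at 6 months was 45.9 and 35.6 CPM at ZT9 and 13.2 and 6.98 CPM at ZT21 in WT and KO-labelled libraries, a log2 difference of 2.01 ± 0.45 (adjusted p = 0.218, edgeR). At 12 months it was 2.45 and 2.11 CPM at ZT5 and 4.798 and 6.513 CPM at ZT21, a difference of -1.30 ± 0.56 (0.481). *Hlf* at 2 months was 72.5 and 60.5 CPM at ZT13 and 33.6 and 47.9 CPM at ZT17, a difference of 0.70 ± 0.17 (0.494). Without the filter on low counts *Hlf* at 2 months (0.71) and *Dbp* at 6 months (2.03) were called.

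Because the H and L times coincide with times of the time course, levels at the same age and ZT can be read side by side, with the experiments normalised separately, 1 library each and so no test. *Usp2* in WT was within 1.18 times of the time course in 4 of 6 places. It was 46.2 against 40.9 CPM at 2 months ZT13, 16.99 against 19.63 at 2 months ZT17, 22.5 against 19.1 at 6 months ZT9 and 3.13 against 2.73 at 12 months ZT5. It was further off at 6 months ZT21 (18.2 against 7.755 CPM) and at 12 months ZT21 (4.22 against 8.18 CPM). *Dbp* was within 1.43 times at 2 months ZT13, 6 months ZT9 and 12 months ZT21. At 2 months ZT17 *Dbp* was 6.10 CPM in the time course and 24.5 CPM in WT. At 12 months ZT5 it was 22.9 CPM in the time course and 2.45 CPM in WT, and at 6 months ZT21 it was 1.34 CPM in the time course and 13.2 CPM in WT. *Nfil3* at 12 months ZT5 was 14.4 CPM in the time course and 46.5 CPM in WT, the widest of its 6 gaps. In *Dbp*, *Nfil3* and *Bhlhe41* the WT library of 12 months at ZT5 lay nearer to the 6-month than to the 12-month time-course library of that time. At 6 months *Dbp* was 3.35 and *Nfil3* 55.0 CPM. In *Tef*, *Hlf*, *Bhlhe40* and *Usp2* this WT library lay nearer to the 12-month library. Its *Tef* was 46.9 CPM, against 51.7 CPM at 12 months and 17.3 CPM at 6 months. Its *Bhlhe40* was 81.3 CPM, against 74.4 and 33.9 CPM. The acute-phase sum was 2920 CPM in this WT library, 62080 CPM in the 6-month and 5235 CPM in the 12-month time-course library at ZT5. Its part in these levels was not tested.

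**Figure D5:**
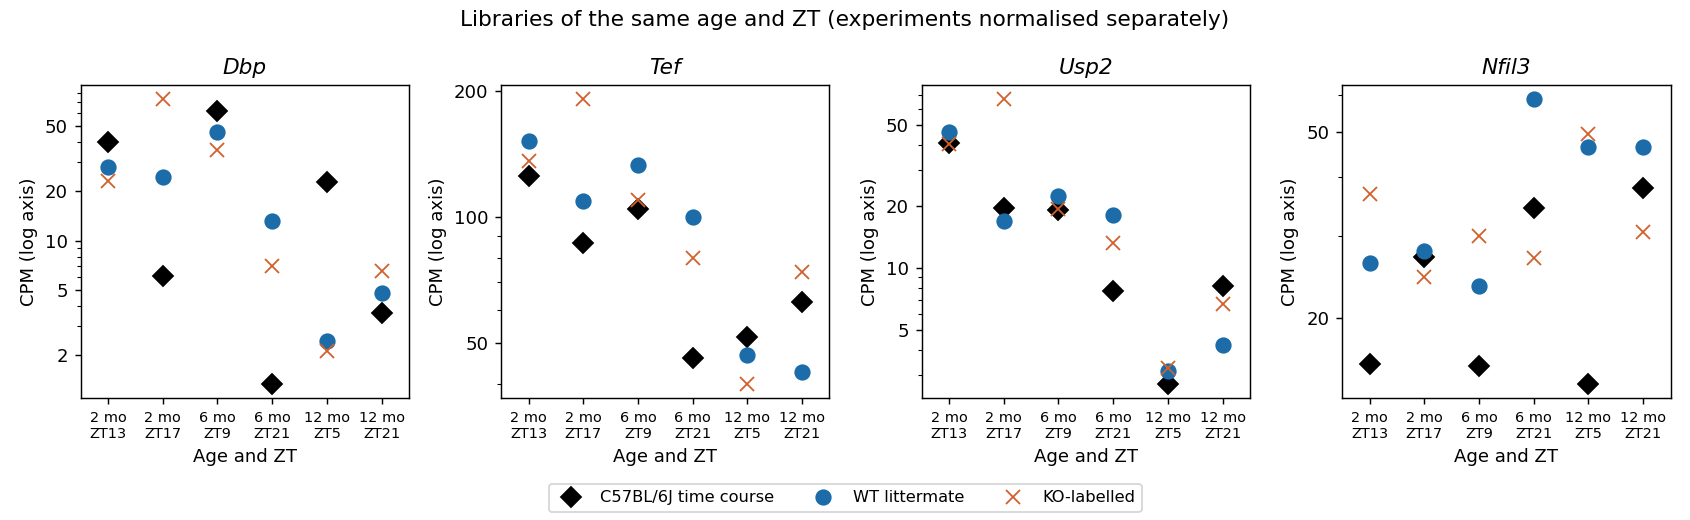
Levels of *Dbp*, *Tef*, *Usp2* and *Nfil3* (CPM, log axis) at the 6 combinations of age and ZT present in both experiments, 1 library per point: the C57BL/6J time course (diamonds), WT littermates (circles) and KO-labelled libraries (crosses). *Dbp* at 12 months ZT5 is 22.9 CPM in the time course against 2.45 and 2.11 CPM in the genotype experiment, and *Usp2* at the same place is 2.73 against 3.13 and 3.25 CPM. At 6 months ZT21 *Usp2* is 7.755 CPM in the time course against 18.2 and 13.25 CPM.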

How the data were processed

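Per the labels, poly(A) RNA of whole liver was made into paired-end libraries, and the authors deposited whole-number counts per gene, 1 table per experiment; the submitters' processing notes name fastp, HISAT2, featureCounts and the mm10 genome, with versions, annotation and strand setting not given in the sources used here. The 7 genes and the lists of clock genes, targets and markers were chosen with earlier results of these data known. Counts were normalised by TMM within each experiment and tested with edgeR 4.0.16 (glmQLFit and glmQLFTest, filterByExpr), with DESeq2 1.42.0 as an alternative, and p-values were adjusted by Benjamini-Hochberg over all genes tested, with a threshold of 0.05. Tests were a 24-h cosine and sine within each age, their difference between ages, age with ZT as a block, KO against WT with the 6 pairs as a block, H against L, and the interactions. Peak times and their SE came from the fitted terms by the delta method. Intervals of differences are 95% normal intervals. The JTK-type test used all 720 orders of 6 values for genes averaging 1 CPM or more. FPKM used union exon lengths of GENCODE M21 (GRCm38), to which 53775 of 54429 symbols and 55144 of 55471 identifiers matched. Named genes were the 7, the 3 most alike per gene (1 of these is not reported here), and up to 4 of each list with the smallest p, and *Cyp7a1*, chosen after its values were seen; *Egr1* was the label check. The scripts were tested on simulated counts. Alternatives were no TMM, no low-count filter, DESeq2, each age alone, 24-h curves in place of the ZT block, subsets of pairs, and leaving out each ZT or pair. All value columns were used.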

Additional observations from a re-analysis of the deposited data

Results flagged for a closer look

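*Nfil3*, the D-box repressor, drew attention because its KO-labelled minus WT difference pointed one way in every pair at H and the other way in every pair at L. The KO-labelled library was higher by 0.49, 0.36 and 0.09 on the log2 scale at H and lower at L, with differences of -0.18, -1.13 and -0.60, at 2, 6 and 12 months. The difference between H and L was 0.95 ± 0.23 (SE), with an unadjusted p of 0.00211 in the edgeR test and an adjusted p of 0.706 over 13639 genes, so it failed the correction. The pairs include 2 in which *Egr1* was not lower in the KO-labelled library, and H and L fall at different ZT at each age.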

How the results depend on the processing

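The genotype test kept the 6 WT and KO pairs of the same age and time as a block, and without that block it also called 0 of the 7 genes. The labels give no replicate numbers, so no block by replicate number was made. The number of the 7 genes called rhythmic by edgeR was 6 at each age and ranged from 4 to 7 under the alternatives. It was 4 at 6 months without ZT13 and at 12 months without ZT1 or ZT13. With each age alone, 4, 4 and 5 genes were called of the 5, 6 and 6 that were tested at 2, 6 and 12 months. *Dbp* at 2 months was not among those tested. With both of the smallest p-values admitted, the JTK-type test called 7, 7 and 7 genes (27.9%, 26.1% and 22.0% of all genes). The change of rhythm from 2 to 6 months went from 0 genes to 3 without the filter on low counts and to 2 by DESeq2, and ranged from 0 to 2 as each ZT was left out; from 6 to 12 months that range was 0 to 1. The level called 2 genes from 2 to 6 months and 2 from 6 to 12 months without the filter, and 1 in each with 24-h curves in place of the ZT block. Without the filter, H against L called 1 gene at 2 months and 1 at 6 months, and genotype by time called 1, *Nfil3* (0.96). The cause was not tested. Level differences from 2 to 6 months that changed sign as a ZT was left out were those of *Bhlhe40* (-0.329 to 0.213), *Bhlhe41* (-0.249 to 0.497) and *Dbp* (-1.03 to 0.284).

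Genotype differences that changed sign as a pair was left out ranged from -0.00702 (without 6 months L) to 0.108 for *Bhlhe40*, from -0.14 (without 12 months L) to 0.403 for *Bhlhe41*, from -0.304 (without 2 months L) to 0.255 for *Dbp*, from -0.0902 (without 2 months L) to 0.45 for *Usp2*, from -0.292 to 0.0325 (without 6 months L) for *Nfil3* and from -0.0499 (without 2 months L) to 0.181 for *Tef*, which was also -0.04 without 12 months L. Over the pairs at H they were -0.0625 for *Bhlhe40*, -0.174 for *Bhlhe41*, -0.304 for *Dbp*, -0.151 for *Usp2*, 0.306 for *Nfil3* and -0.222 for *Tef*, and over the pairs at L 0.0652 for *Hlf*. Over the pairs with less *Egr1* in the KO-labelled library they were -0.313 for *Dbp*, -0.107 for *Usp2* and -0.00322 for *Tef*, and without TMM factors 0.0521 for *Hlf*. None of these values passed the test. *Bhlhe41*, with 6 to 76 reads a library in the time course, is the gene with the fewest reads.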

Other observations

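The targets of the D-box factors in the genotype libraries gave 0 calls of 12 between genotypes (edgeR, 1.58% of all genes called, 2 of 12 and 16.0% of all genes at an unadjusted p under 0.05). Those were *Fgf21*, a fasting hormone of the liver, at -1.35 ± 0.50 on the log2 scale (adjusted p = 0.221, edgeR) and *Cyp2a5* at 0.55 ± 0.23 (0.276). The *Cyp2a5* difference between genotypes was lower at H than at L by -1.26 ± 0.22 (unadjusted p of 0.000252 and adjusted p of 0.381, edgeR). The D-box ratio of summed *Dbp*, *Tef* and *Hlf* to *Nfil3* in FPKM was 3.05, 3.49 and 0.532 in WT at H and 1.98, 0.939 and 0.602 in WT at L at 2, 6 and 12 months. In KO-labelled libraries it was 1.88, 2.21 and 0.441 at H and 4.62, 1.62 and 1.18 at L, lower than WT in 3 of 3 pairs at H and higher in 3 of 3 at L, untested and built in part on the *Nfil3* values above.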
